A study of Drosophila melanogaster with 12 samples.

Results

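Open chromatin was measured at 646 proximal promoters whose genes gave no RNA or almost none in Drosophila S2 cells. These promoters are the merged ATAC-seq peaks that the authors annotated to within 1 kb of a transcription start site (TSS), and whose gene was either absent from the RNA-seq count sheet or had a mean raw count under 10 over the 6 RNA-seq libraries. Genes of tRNA, snoRNA, snRNA and pre_miRNA biotype were left out. The 646 peaks belong to 581 genes, and they were found among 6066 proximal promoter peaks and 10269 merged peaks in all. They were selected on the presence of a peak and on the RNA count, so neither is a finding. For comparison, 5255 proximal promoter peaks belonged to genes with a mean count of at least 10, called genes with RNA below.

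S2 (Schneider 2) is an established cell line with features of hemocytes, the blood cells of the fly, and the labels give its source as male Oregon-R animals. Cells of both groups were serum-starved, then exposed for 4 h to insulin (10 M in the labels, 10 µM in the study's methods) or to vehicle, 25 mM HEPES at pH 8.2. ATAC-seq, in which a transposase tags accessible DNA, was performed on 60000 sorted DAPI-negative cells per sample, and RNA-seq on rRNA-depleted total RNA, each with 3 insulin and 3 vehicle samples. A caption of the study calls the ATAC-seq samples biological replicates, but whether each sample was a culture of its own is not stated, and a p-value here covers no more than the spread among these libraries, which may be technical. RNA-seq libraries held 7132065 to 9850342 counts after insulin and 8125856 to 10256535 counts after vehicle, so a mean count of 10 is close to 1 CPM, the count scaled to the total of its library. Of the 10 plasmatocyte markers, 9 were in the count sheet at 24.4 to 493 CPM and NimC1 was absent. All 4 fat body markers were absent. Of the neuronal markers, brp, nSyb, Syt1 and para were at 0.749 to 2.27 CPM, but elav was at 59.2 CPM. Of the muscle markers, Mhc, Act88F and Act57B were at 0.416 to 0.592 CPM, but sls was at 53.9 and bt at 14.1 CPM. Of the germline markers, vas, nos and bam were at 0.391 to 0.96 CPM and zpg was absent, but aub was at 126 CPM. Of the follicle markers, tj was at 0.928 CPM, and Cp36 and Vm26Aa were absent. In a bulk sample, few cells with a transcript and little transcript per cell cannot be told apart, and the same holds for accessible DNA.

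An accessible promoter is a stretch of DNA near a TSS from which nucleosomes are displaced, and it is usually found at genes that are being transcribed. Several kinds of fly promoter are known to be open without productive transcription. At heat shock genes the GAGA factor (Trl) binds GAGA elements and RNA polymerase II is held paused shortly after initiation, ready for induction. Many developmental regulators, such as Hox and other homeobox genes, are held silent by Polycomb group proteins in cells where they are not used, and their promoters often carry GAGA elements as well. By contrast, promoters of housekeeping genes in the fly often carry the DNA replication-related element (DRE), bound by DREF, or Motif 1, bound by M1BP.

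The sequences below show what such promoters look like at 5 developmental genes and 1 heat shock gene of the set. They were picked among the strongest members of their lists because they hold a GAGA element, so they are not typical: in a window from 250 bases before to 50 after the TSS, 23 of 58 peaks of developmental transcription factors (39.7%) hold one. Each runs 5′ to 3′ on the strand of the gene, from 200 bases before the annotated transcript start through the first 20 transcribed bases, and was read from the dm6 reference sequence of RefSeq. The start itself is position 1 and the base before it position -1. Capitals mark the GAGA element (GAGAGAG on either strand, overlapping matches included), in Ilp8 and Hsp70Aa also the TATA box (TATAAA), and in Hsp70Aa also the heat shock element (GAANNTTC, which reads the same on both strands). The gene nub encodes a POU homeodomain protein (chr2L:12618145-12618364, + strand), disco a zinc finger protein of the embryonic head (chrX:16216731-16216950, - strand) and mirr an Iroquois homeodomain protein (chr3L:12693439-12693658, + strand). The gene dpp encodes the fly BMP ligand (chr2L:2451029-2451248, + strand), Ilp8 a relaxin-like peptide that delays metamorphosis (chr3L:17032061-17032280, - strand) and Hsp70Aa the major inducible chaperone (chr3R:11956525-11956744, - strand).
nub: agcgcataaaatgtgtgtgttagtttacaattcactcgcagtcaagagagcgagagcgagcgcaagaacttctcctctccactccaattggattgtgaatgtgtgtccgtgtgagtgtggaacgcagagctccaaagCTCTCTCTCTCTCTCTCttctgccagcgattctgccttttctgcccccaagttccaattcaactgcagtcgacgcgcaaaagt
disco: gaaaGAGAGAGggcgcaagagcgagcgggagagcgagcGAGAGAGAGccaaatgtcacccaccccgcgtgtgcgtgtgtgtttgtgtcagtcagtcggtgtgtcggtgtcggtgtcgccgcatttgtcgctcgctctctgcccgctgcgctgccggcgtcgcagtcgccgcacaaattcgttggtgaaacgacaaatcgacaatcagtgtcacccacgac
mirr: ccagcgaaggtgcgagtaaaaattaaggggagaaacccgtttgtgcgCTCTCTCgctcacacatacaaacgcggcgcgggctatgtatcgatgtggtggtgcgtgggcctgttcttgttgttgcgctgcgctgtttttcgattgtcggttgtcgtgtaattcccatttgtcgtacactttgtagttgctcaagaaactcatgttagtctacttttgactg
dpp: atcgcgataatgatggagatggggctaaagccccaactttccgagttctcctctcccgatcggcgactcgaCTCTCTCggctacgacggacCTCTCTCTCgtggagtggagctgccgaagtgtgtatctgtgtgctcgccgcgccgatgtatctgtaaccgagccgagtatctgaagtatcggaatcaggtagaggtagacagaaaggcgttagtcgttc
Ilp8: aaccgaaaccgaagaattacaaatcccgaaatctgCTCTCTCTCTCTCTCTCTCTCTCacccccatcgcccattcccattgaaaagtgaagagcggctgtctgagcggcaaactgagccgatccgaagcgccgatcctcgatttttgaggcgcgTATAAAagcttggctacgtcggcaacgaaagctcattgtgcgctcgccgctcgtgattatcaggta
Hsp70Aa: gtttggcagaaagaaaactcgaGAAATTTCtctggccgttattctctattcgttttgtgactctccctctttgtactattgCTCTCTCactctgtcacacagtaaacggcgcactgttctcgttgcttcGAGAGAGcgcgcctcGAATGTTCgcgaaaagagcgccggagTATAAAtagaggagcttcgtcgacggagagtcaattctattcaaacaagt

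In nub the 6 overlapping GAGA matches start between positions -63 and -53, and in dpp the 3 matches start at -129, -109 and -107. Ilp8 holds 9 overlapping matches that start between -165 and -149, and a TATA box at -46. Hsp70Aa holds GAGA elements at -119 and -71, a TATA box at -30 and heat shock elements at -178 and -56. A match of letters is a description and does not show that a protein is bound.

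Accessibility without RNA was uncommon among genes but frequent among developmental regulators. Of the 8269 genes without RNA, 581 (7.03%, Wilson 95% interval 6.50 to 7.60) had an open proximal promoter, against 4212 of 8419 genes with RNA (50.0%). The share was 25.7% for genes with a mean count of 10 to 100, 51.1% for 100 to 1000 and 74.8% above 1000. Within the genes without RNA, 12.3% of the 1560 listed with a mean under 10 were open, against 5.80% of the 6709 absent from the sheet. This difference depends on the measure: a TSS lay inside some merged peak for 8.65% of the listed and 8.02% of the absent genes. Genes and peaks are not replicates of a condition, so these shares carry counting intervals and no test. The gene lists and motifs below were chosen with earlier results of these data known, and the intervals do not cover that choice.

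On a list of homeobox genes and a few related regulators, many of them known Polycomb targets and called the homeobox list here, 27 of the 49 without RNA had an open proximal promoter (55.1%, 41.3 to 68.1). They included the Hox genes lab, pb, Dfd, Scr and Abd-B, which set segment identity, the segment polarity genes en and inv, the limb gene Dll and the eye regulators so and Optix. The list also holds eya, a phosphatase and coactivator that works with so, and Poxm, a paired box gene, which lack a homeobox and were open. On a list of other developmental transcription factors, 26 of 58 were open (44.8%, 32.7 to 57.5), among them SoxN, D, kni, odd, opa, salm and dac. Secreted signaling ligands followed with 5 of 20 (25.0%, 11.2 to 46.9), namely wg, Wnt6, hh, dpp and Ilp8. In the same lists, 6 of 8 genes of the homeobox list, 8 of 10 other factors and 19 of 23 ligands with RNA were open. These shares depend on what counts as open: 20 of the 49 genes of the homeobox list (40.8%) and 14 of the 58 other factors (24.1%) had a TSS inside a merged peak, against 8.14% of all genes without RNA.

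Lists of genes for functions of differentiated cells gave other shares. None of 40 genes for ion channels and synaptic proteins was open (0%, up to 8.76), none of 26 antimicrobial peptide and immune-induced genes (0%, up to 12.9), and 1 of 62 adhesion and guidance genes, dpr20, whose peak is 85.0% annotated transposable element. Neurotransmitter, peptide and odorant receptors gave 3 of 53 (Rh4, Rh5 and mAChR-A), muscle and cuticle genes 2 of 38 (Mlp60A and Cpr92A), and germline and testis genes 2 of 28 (zpg and Ste12DOR, whose wider peak is 100% annotated transposable element). Ecdysone response genes gave 2 of 16 (Hr46 and Hr83), and fat body, gut and ovarian markers 2 of 21 (Vm26Aa and tj). Of the 8 plasmatocyte list genes without RNA, 4 were open: PPO2, a prophenoloxidase of crystal cells, lz, which specifies them and is also on the list of developmental factors, and gcm and gcm2, which act in glia and hemocytes. Among gene families taken by symbol after the values were seen, 4 of 11 glutathione S-transferases were open (36.4%, 15.2 to 64.6), against 0 of 51 gustatory receptors, 2 of 53 odorant receptors and 1 of 117 cuticle proteins.

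**Figure D1:**
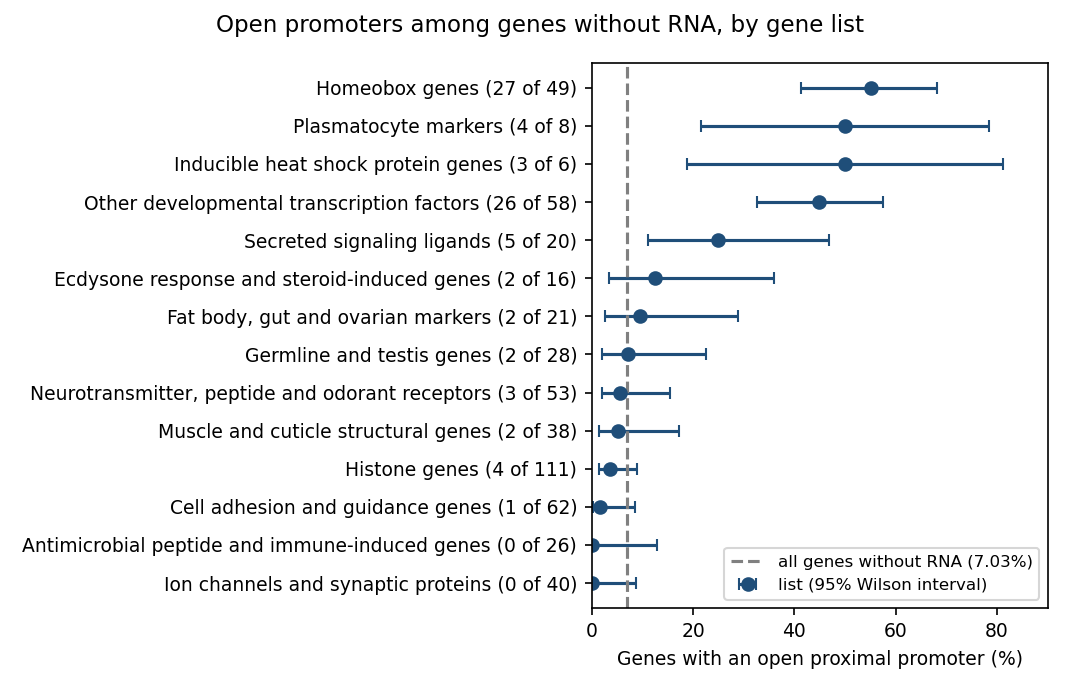
Share of genes without RNA that had an open proximal promoter (x axis, %), for each gene list (y axis, with the number open of the number without RNA); points are shares and bars 95% Wilson intervals. The intervals of the homeobox list (41.3 to 68.1%) and of the other developmental transcription factors (32.7 to 57.5%) lie to the right of the share over all genes without RNA, 7.03% (dashed line). The lists were chosen with earlier results of these data known.

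The developmental promoters had narrow peaks with modest counts per peak. The 53 genes of both transcription factor lists had 58 peaks, of which 51 lay within 150 bp of a TSS of the gene and 0 held the TSS of another gene with RNA. Their width was 310 to 1290 bp with a median of 470 bp, and their mean normalized ATAC count, which the authors took over all 6 samples, was 110 to 659 with a median of 199. The highest on the homeobox list were mirr (396, chr3L:12692801-12693730), en (336), Poxm (309) and hth (278). On the other list they were SoxN (659), disco (583), nub (559) and dac (548), and among the ligands wg (308), dpp (298), Ilp8 (227) and the higher of the 2 Wnt6 peaks (178). Of the 58 peaks, 48 were called in both treatments.

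Most of these genes were not in the count sheet, and the others had low counts. Genes of 41 of the 58 peaks were absent from the sheet, including disco, mirr and SoxN, and so was wg. dac had raw counts of 3, 4 and 3 in the insulin libraries, against 8, 5 and 5 in the vehicle libraries. nub had 1, 2 and 3 after insulin, against 8, 2 and 0 after vehicle. Of those named here, dpp was closest to the limit, with 9, 8 and 7 after insulin and 15, 10 and 8 after vehicle. The groups overlapped for nub and dpp. For dac every raw vehicle count was above every raw insulin count, but these counts are not scaled to library totals, which differ. None of these genes passed the filter on low counts, so no test was made. Ilp8 had 5, 6 and 5 counts after insulin and 2, 4 and 5 after vehicle.

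GAGA elements were frequent at the developmental promoters. In the central 300 bp of the peak, 94 of the 646 peaks (14.6%) held a GAGA element, against 540 of 5255 promoters of genes with RNA (10.3%) and 10.6% of all proximal promoter peaks. The 58 peaks of both transcription factor lists gave 26 (44.8%, 32.7 to 57.5). Outside them and outside the arrays of repeated genes described further on, 68 of 533 peaks held one (12.8%). The CA repeat (CACACACA) was in 27.6% of the 58 peaks, 12.2% of all members and 12.3% of promoters of genes with RNA. The Pho core (GCCATTTT), the site of the Polycomb recruiter Pho, was in 3 of the 58 peaks (5.17%), in 2.17% of all members and in 2.07% of promoters of genes with RNA. Their intervals overlap. Median GC content of the same window was 53.0% in the 58 peaks, 48.3% in all members and 45.7% at promoters of genes with RNA, and its part in these shares was not tested.

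The motifs of housekeeping promoters were rare. The DRE (TATCGATA) was in 3 of the 646 peaks (0.464%), against 4.36% of promoters of genes with RNA, and the Motif 1 core (GGTCACAC) in 7 (1.08%), against 5.18%. In a window set on the TSS, from 250 bases before to 50 after it, the shares were further apart: 1.86% against 11.8% for the DRE and 1.08% against 12.1% for Motif 1. In that window 0 of the 58 developmental peaks held either motif. The TATA box was in 38.1% of members and in 39.4% of promoters of genes with RNA there, but in 5 of the 58 developmental peaks (8.62%). The Initiator (TCAGT) was in 55.6% of members, 51.7% of the 58 peaks and 49.6% of promoters of genes with RNA. All motifs were searched on both strands and none was required to be in the strand of the gene. Shares of the E-box (CAGCTG), the AP-1 site (TGACTCA), the GATA site (TGATAAG) and the heat shock element in the peak centre were 16.1%, 3.56%, 4.49% and 5.88% of members, against 19.5%, 3.35%, 5.46% and 7.90% of promoters of genes with RNA.

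**Figure D2:**
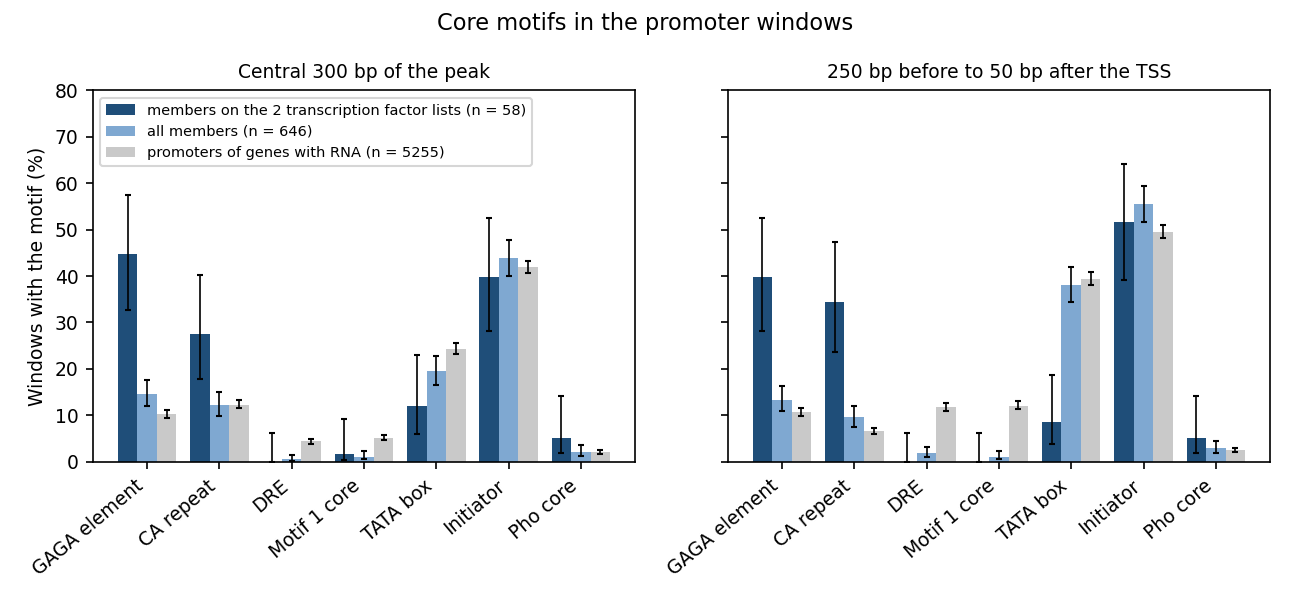
Share of windows that hold each motif (y axis, %) in the central 300 bp of the peak (left) and from 250 bp before to 50 bp after the TSS (right), for members on both transcription factor lists, all members, and promoters of genes with RNA; bars are shares and lines 95% Wilson intervals. GAGA elements stand at 44.8% in the developmental peaks, and the DRE and Motif 1 stand lower in members than at promoters of genes with RNA in both windows.

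Both Hsp70 genes without RNA that a peak was named for had wide and strong peaks. Hsp70Aa lay in a peak of 4530 bp with a mean ATAC count of 2622 (chr3R:11952301-11956830) and Hsp70Ba in one of 7100 bp with 3494 (chr3R:12464061-12471160). The Hsp70Ba peak also holds the TSS of CG5608, which averaged 36.5 CPM after insulin and 43.7 CPM after vehicle, and 30.7% of it is annotated transposable element. Hsp22, which encodes a small mitochondrial chaperone, lay in a smaller peak of 1280 bp with 326, or 255 per kb. Hsp70Aa had 7, 1 and 3 raw counts after insulin and 8, 1 and 4 after vehicle, so the groups overlapped. On the list of inducible heat shock genes, 3 of the 6 without RNA were named by a peak, and 5 of 6 had a TSS inside some peak, as the annotation names 1 gene per peak. The Hsp70 copies are nearly identical. ATAC-seq reads with several matches were placed at random, and the study's featureCounts command names no option to count such RNA-seq reads. Values per copy are therefore uncertain in both assays, and low RNA of a copy may come from the counting.

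Most members were narrow, and a minority was wide. Of the members 12.2% were at least 2000 bp wide (8.46% outside arrays), against 12.9% of promoters of genes with RNA. Their median width was 590 bp (quartiles 410 and 1008), against 790 bp (490 and 1370) at promoters of genes with RNA, and their median ATAC mean was 218 (159 and 366), against 273 (178 and 473). Per kb of peak the order turned, with a median of 376 in members and 355 at promoters of genes with RNA. Members made up 16.8% of proximal promoter peaks of up to 400 bp, 5.74% of those from 1001 to 2000 bp and 21.7% of those over 4000 bp. Of the 44 members over 4000 bp, 25 lay in arrays of repeated genes, 8 were mostly transposable element, 5 held the TSS of another gene with RNA, and 6 were none of these. All 44 were called in both treatments.

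Repeated genes supplied 55 members. Peaks of the histone array on 2L were 26 of them, with a median width of 4500 bp and a median ATAC mean of 3020, led by the peak of His4:CG31611 at 9760 bp and 6316. The annotation named few of the histone genes themselves: 4 of 111 without RNA were named by a peak, while 104 had a TSS inside one. A further 20 lay at 5S rRNA genes on 2R, 4 at rRNA genes and 5 at the Stellate and Su(Ste) repeats, of which Ste:CG33237 was widest (9580 bp, ATAC mean 4475). rRNA was removed before RNA-seq, so absence of rRNA genes from the sheet says nothing on their transcription. On the histone list 5 genes had RNA. The copy His2B:CG33868, whose TSS lies in the array peak of snmRNA:430:CR33746, averaged 106 CPM after insulin and 125 CPM after vehicle. The study's featureCounts command names no option for reads that match several copies, so absence of a histone copy does not show silence. ATAC-seq reads with several matches were placed at random, and the part of such reads in either assay was not tested.

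Transposable elements filled over 50% of 30 members (4.64%, 3.27 to 6.55), against 45 promoters of genes with RNA (0.856%). The member with the highest ATAC mean of all, CG32816 on X, was of this kind: its peak of 6420 bp had a mean count of 11963, and 95.4% of it was annotated as a 3S18 element. Peaks annotated to CG42329 (4675) and CR44143 (4405) were 96.8% and 97.3% blood element, a retrotransposon of the gypsy group, and those of the chemosensory receptor genes Or43a (2473) and Ir10a (2826), picked after their values were seen, were 98.7% jockey and 98.8% Stalker2. Elements of the jockey family were in 7 of the 30 peaks and 297 elements in 6. For these peaks the gene is only the nearest annotated TSS, and the RNA of the elements was not analysed here.

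**Figure D3:**
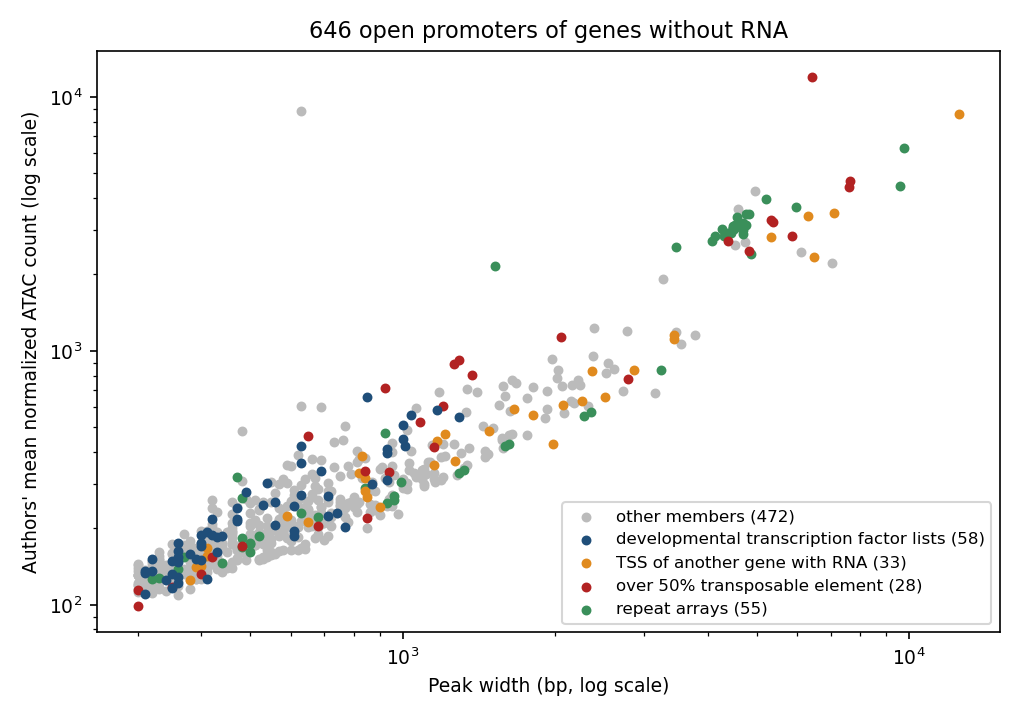
Width of each of the 646 peaks (x axis, bp, log scale) against the authors' mean normalized ATAC count over all samples (y axis, log scale), coloured by class; each point is a peak, and a peak is shown in the earliest class it meets in the order repeat arrays, transposable element, TSS of another gene with RNA, transcription factor lists. The 58 developmental peaks lie at 310 to 1290 bp, and 25 of the 44 peaks over 4000 bp lie in repeat arrays.

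Strong peaks were also found outside the named arrays and annotated transposable elements. Rh5, which encodes a blue-sensitive opsin of photoreceptors, had a pair of neighbouring peaks of 4970 and 4600 bp with ATAC means of 4280 and 3614 (chr2L:12002951-12007920 and chr2L:12008301-12012900). Its RNA was 6, 4 and 2 raw counts after insulin and 8, 5 and 3 after vehicle, which overlap. Obp99c, an odorant binding protein gene absent from the sheet and likewise picked after its values were seen, had peaks of 7040 and 3770 bp with 2212 and 1157, and peaks were also annotated to its neighbours Obp99b and Obp99d. The widest member, Reg-2, spanned 12540 bp with an ATAC mean of 8605 (chr3L:604771-617310) and held the TSS of CR42719. Reg-2 had 6, 9 and 10 counts after insulin and 9, 5 and 10 after vehicle. Ory, a testis gene on Y, had the highest count per kb, 13947, in a peak of 630 bp, and was 1 of 4 members on Y. That peak lies 436 bp from the annotated TSS. Repeats of other kinds were not checked, and ATAC-seq reads with several matches were placed at random, so its height may not reflect an open promoter.

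Few members held the TSS of another transcribed gene, which follows in part from the annotation. It names the gene of the nearest TSS, so a peak that holds only the TSS of a transcribed gene is not a member. The shares and distances below were not corrected for this. The TSS of another gene with RNA lay in 36 of them (5.57%, 4.05 to 7.62), against 21.5% of promoters of genes with RNA, and within 500 bp of 63 (9.75%, against 33.1%). The median distance to such a TSS was 6144 bp, against 1652 bp. The centre of 104 members (16.1%) lay in the body of another gene with RNA, against 18.6%, and 526 (81.4%) met neither condition. The TSS of the annotated gene itself was inside the peak for 326 members (50.5%) and for 78.9% of promoters of genes with RNA, and 61 genes had more than 1 member peak. Long noncoding RNA genes (lincRNA) were 183 of the members (28.3%), against 2.89% of promoters of genes with RNA, and protein-coding genes 419 (64.9%), against 96.8%. Of lincRNA genes without RNA 9.13% were open, and of protein-coding genes 6.12%. By a TSS inside some merged peak the shares were closer, 7.82% and 7.24%. The X chromosome held 70 members (10.8%), against 15.7%. Of genes on X, 5.90% of those without RNA and 42.9% of those with RNA were open. Both shares were lower than over all chromosomes (7.03% and 50.0%).

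Members called after 1 treatment were more often in the insulin list, mostly among weak peaks. Both peak lists held 494 members (76.5%), the insulin list alone 98 (15.2%, 12.6 to 18.1) and the vehicle list alone 54 (8.36%, 6.46 to 10.7). With only peaks scored above the median of their list, 27 members overlapped such a peak after insulin alone and 23 after vehicle alone. These can be members of both lists whose score passed the median in 1 of them, so they are no subset of the 98 and 54. At promoters of genes with RNA the order was the other way, with 4.74% in the insulin list alone and 12.1% in the vehicle list alone. The authors called each list on the 3 samples of a treatment together, so no spread between samples can be given and no test was made. The 98 had a median width of 390 bp and a median ATAC mean of 147, and their median score was at the 10.5th percentile of the insulin list. The 54 had medians of 385 bp and 141 and were at the 18.9th percentile of the vehicle list. Median GC content of the central 300 bp was 51.0% in the 98 peaks and 44.3% in the 54, and its part in the calls was not tested. By the study's quality metrics, each insulin ATAC-seq sample had more nonduplicate reads and a lower duplication rate than each vehicle sample. The part of depth and duplication in the calls was not tested either.

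Since peaks of 1 list were weak, members outside arrays and promoters of genes with RNA were set side by side within 5 bins of equal size by ATAC mean count. In the lowest bin, 63 of 171 members (36.8%, 30.0 to 44.3) were in the insulin list alone, against 188 of 1001 promoters of genes with RNA (18.8%, 16.5 to 21.3). In the vehicle list alone were 38 members (22.2%, 16.6 to 29.0), against 474 (47.4%, 44.3 to 50.4). In the next bin the shares were 13.2% against 4.61% for insulin and 6.94% against 13.2% for vehicle. In bin 3 the vehicle list alone held more members, 5 of 119 (4.20%, against 2.56%), than the insulin list alone, 3 of 119 (2.52%, against 1.33%), and the intervals overlap. In the bins 4 and 5, 0 of 78 and 0 of 79 members were in 1 list alone. The highest in the insulin list alone were 3 peaks of 5S rRNA genes (553, 429 and 339) and the pseudogenes CR42545 (314) and CR33629 (304), and 13 of the 20 members of the 5S array were of this kind. Outside the arrays the counts were 85 and 53. The highest in the vehicle list alone were Sip1 (271), CR44826 (248), CG5478 (244), CG6405 (243) and CG43245 (222). Of the developmental peaks, lab, lbl, knrl, eyg, fkh and nerfin-1 were in the insulin list alone, and pb, prd, gsb-n and Sox21b in the vehicle list alone.

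**Figure D4:**
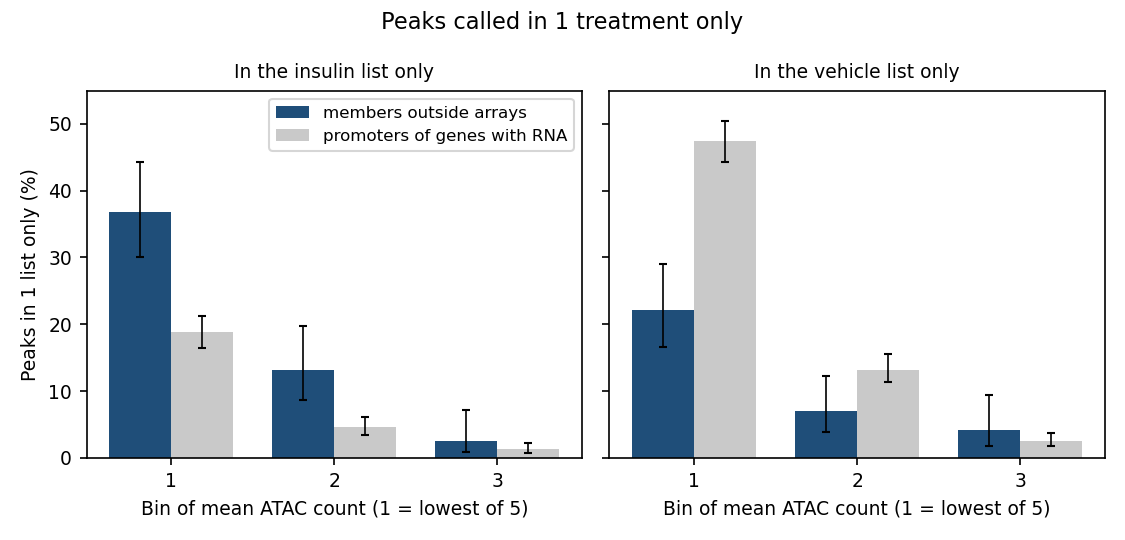
Share of peaks in 1 list only (y axis, %) by bin of the authors' mean ATAC count over all proximal promoter peaks (x axis, the lower 3 of 5 bins), for members outside repeat arrays and promoters of genes with RNA; bars are shares and lines 95% Wilson intervals. In the lowest bin members stand at 36.8% against 18.8% in the insulin list alone, and at 22.2% against 47.4% in the vehicle list alone.

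The member genes in the count sheet gave little RNA in either treatment, which the rule fixed. Their 192 genes had mean counts of 1.83 to 9.83 with a median of 5.17, and together 117, 123 and 103 CPM in the insulin libraries, against 160, 123 and 119 in the vehicle libraries, so the groups overlapped. Only 7 passed the filter on low counts, which keeps genes near the limit of 10. Of these, 0 were called at FDR below 0.05 by edgeR's quasi-likelihood test, with 0 at an unadjusted p under 0.05, against 50.0% called of all 8683 genes tested. With group means of 0.736 to 1.34 CPM and SE of 0.40 to 0.52 on the log2 scale, these 7 had little power. The shares are therefore not a contrast of response. DESeq2 gave these genes no adjusted p. Without insulin library 3 the filter kept 35 member genes and 3 were called (CR45953, Gyc88E and Timp), beside 3965 called over all genes in that fit. Without each of the other libraries 0 member genes were called. The counts of Sip1 were 16, 7 and 10 after insulin and 7, 6 and 13 after vehicle (log2 fold change 0.55 ± 0.40 SE, edgeR adjusted p = 0.262). Those of CG13386 were 12, 5 and 10 after insulin and 13, 4 and 3 after vehicle (0.63 ± 0.49, edgeR adjusted p = 0.292), and those of Hsp70Ba 8, 10 and 8 after insulin and 13, 11 and 9 after vehicle (-0.13 ± 0.40, edgeR adjusted p = 0.819). For each of them the groups overlapped. CG14044, Dhit and CR44775 had adjusted p of 0.827, 0.480 and 0.783 in the same edgeR fit. The remaining gene, CR45953, had 4, 3 and 14 counts after insulin and 16, 11 and 7 after vehicle, which overlap (-0.48 ± 0.52, edgeR adjusted p = 0.474). A p that misses the threshold does not show that these genes did not change.

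**Figure D5:**
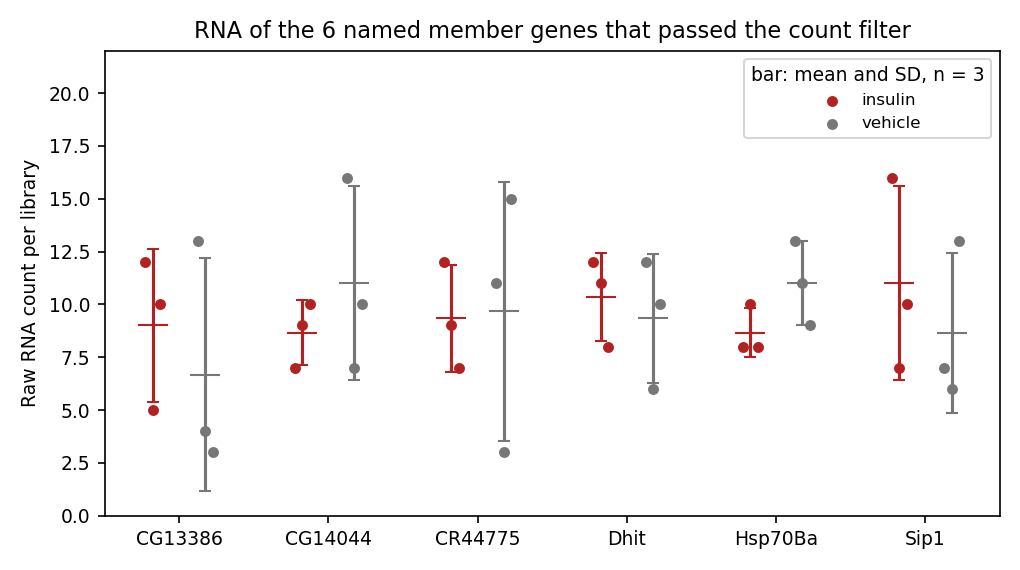
Raw RNA count per library (y axis) of the 6 named member genes that passed the filter on low counts (x axis), for 3 insulin and 3 vehicle libraries; points are libraries, and bars give the mean and SD. Counts lie between 3 and 16, and the groups overlap for every gene shown.

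The limit of 10 divides genes with like counts. Just inside it were CG14044, with 7, 9 and 10 counts after insulin and 16, 7 and 10 after vehicle, Dhit and Sip1, each with a mean of 9.83. Just outside it were CR45401 and CR44133 with a mean of 10.0, and CG18810 with 12, 12 and 9 after insulin and 13, 6 and 9 after vehicle, a mean of 10.2.

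Other genes with a TSS in a member peak did have RNA, and their response was not used by the rule. Of 43 such genes 42 were tested, and 25 (59.5%) were called, 13 higher after insulin (31.0%, against 27.0% of all genes tested) and 12 lower (28.6%, against 23.1%). The median log2 fold change was 0.01, against -0.01 over all genes tested. The largest rise was that of pit, a DEAD-box RNA helicase of ribosome biogenesis whose TSS lies in a peak annotated to CG6015. It had 174, 166 and 173 CPM after insulin, against 75.2, 74.3 and 76.6 after vehicle (log2 fold change 1.18 ± 0.04 SE, edgeR adjusted p = 7.15e-26). The insulin libraries were all above the vehicle libraries. CG8064, beside CG14312, averaged 132 CPM after insulin and 68.8 CPM after vehicle (log2 fold change 0.94). The fatty acid binding protein gene fabp, beside sea, averaged 178 CPM after insulin and 120 CPM after vehicle (0.56). The mitochondrial import gene blp, beside CG5478, averaged 53.4 CPM after insulin and 36.4 CPM after vehicle (0.55). The chaperone cofactor gene HIP, beside CR33221, averaged 15.1 CPM after insulin and 10.4 CPM after vehicle (0.54).

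Of the falls that were called, those of neighbours that reached 5 CPM in either treatment were smaller than the rise of pit. The rRNA gene copy 2SrRNA:CR45864, which was not called, averaged 6.57 CPM after insulin and 14.4 CPM after vehicle (log2 fold change -1.05, edgeR adjusted p = 0.303). Its libraries overlapped. CG33155, beside mRpL53, averaged 4.37 CPM after insulin and 6.06 CPM after vehicle (log2 fold change -0.46), and CG32176, beside frc, averaged 17.0 CPM after insulin and 23.5 CPM after vehicle (-0.46). The insulator binding factor gene Ibf2, beside CG16736, had 19.3, 25.0 and 18.1 CPM after insulin, against 27.3, 26.9 and 27.4 after vehicle (-0.40 ± 0.09 SE, edgeR adjusted p = 0.000398). CR45520 and the serpin gene Spn42Dc fell by 0.39 and 0.37 on the log2 scale. In the 5 named rises and 5 named falls that were called, the libraries of the treatments did not overlap. For a peak that holds the TSS of a transcribed gene, accessibility of the silent gene and of its neighbour cannot be told apart.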

How the data were processed

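ATAC-seq and RNA-seq of S2 cells were used, with 3 insulin and 3 vehicle samples each. For ATAC-seq, the authors used Novoalign on dm6, with random placement where a read matched several sites. Their MACS-based pipeline took the 3 samples of each treatment jointly to call peaks, after which both lists were merged and annotated with ChIPseeker. The deposited peak lists give a score per peak, which served here for percentiles within that list. The authors' table gives a mean normalized signal per merged peak over all samples, taken here as the ATAC mean. Its further columns and those of the RNA-seq comparison hold the authors' fold changes, standard errors and p-values and were not used. For RNA-seq, STAR on BDGP6 was followed by strand-specific featureCounts, and the counts deposited by the authors are whole and not normalized. The sheet lists 10287 genes, with a lowest total of 6 counts. The authors' tool versions were not used here.

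Peaks were selected and described with Python 3.11.15 (numpy 2.4.6, pandas 2.3.3, scipy 1.17.1, matplotlib 3.10.9). Peaks of the lists were shared at an overlap of 1 bp. TSSs, transposable elements and the dm6 sequence were taken from the Ensembl annotation and the RefSeq genome, and 575 of 581 gene IDs matched a current symbol. Between treatments, RNA counts were tested in R 4.3.3 with limma 3.58.1 and edgeR 4.0.16 (TMM, filterByExpr, robust quasi-likelihood test, FDR 0.05) over all 8683 genes that passed, and with DESeq2 1.42.0 as an alternative. The test was tested on simulated counts. Members, gene lists, motifs and alternatives were chosen with earlier results of these data known. Peaks named were the 10 highest by ATAC mean without another TSS, the 5 widest, up to 4 per gene list, 5 per single list, 3 on each side of the count limit, up to 6 that passed the filter, and 5 rises and 5 falls of neighbours with at least 5 CPM. Intervals cover counting error only.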

Additional observations from a re-analysis of the deposited data

How the results depend on the processing

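A limit of 1 kept only genes absent from the sheet, as the lowest total of a listed gene was 6 counts over 6 libraries. The absent genes gave 424 members, with 93 in 1 list alone (63 insulin, 30 vehicle) and 22 with another TSS with RNA. Of the absent genes 5.80% were open, and a limit of 20 gave 7.91%. Over the limits on RNA tried, that to absent genes included, the homeobox share was 52.5 to 56.9% and that of the other factors 40.5 to 45.0%. Where a gene counted as open only if a TSS lay inside some merged peak, a choice made after seeing the data, the shares were 40.8% of the homeobox list, 24.1% of the other developmental factors and 8.14% of all genes without RNA. Another TSS with RNA was within 500 bp of 63 members and in the central 300 bp of 15. With only peaks scored above the median of their list, 50 members overlapped such a peak in 1 treatment alone, 27 for insulin and 23 for vehicle. Members of both lists could be counted there. The log2 ratio of median ATAC means, members over promoters of genes with RNA, was -0.32 and turned to 0.08 per kb of width. Leaving out 1 library at a time gave 0 to 3 called member genes. The 3, CR45953, Gyc88E and Timp, were called without insulin library 3, where 35 member genes passed the filter and 3965 genes were called in all. With no filter 1 of 192 member genes was called (CR46033), beside 4272 called over all genes, and DESeq2 gave no adjusted p for the member genes. Leaving out the arrays, also chosen after seeing the data, gave 591 members. Of all values recomputed, 250 kept their direction and stayed within 1.5 times or the spread, 24 moved and 1 reversed. No paired analysis was possible because the count columns carry no replicate number. Depth limits the RNA side, since 7 of the 192 listed member genes had enough counts to be tested.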
